A study of Capra hircus with 6 samples.

Results

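The genes described here encode secreted activators of Wnt signaling: the WNT ligands WNT2, WNT2B, WNT5A, WNT5B, WNT7B, WNT10A, WNT10B, and WNT11 and the R-spondins RSPO2 and RSPO3. They were taken by gene symbol from the deposited count table, in which all 10 were found among 15944 genes. Secondary hair follicle dermal papilla cells (SHF-DPCs) were cultured as primary cells from scapular skin that wild-type, 3-year-old Albas cashmere goats (Capra hircus) gave in the hair growth season. According to the methods, cells of 3 animals at passages 4 to 7 were used, and the control group (3 libraries) was kept in culture medium while the ATRA-treated group (3 libraries) received all-trans retinoic acid (ATRA) at 100 µM for 24 h. Whether the same animals gave both groups is not stated. ATRA is the metabolite of vitamin A that activates the retinoic acid receptors.

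WNT proteins are lipid-modified ligands that bind Frizzled receptors on nearby cells. With the coreceptors LRP5 and LRP6 they stabilize β-catenin, whereas WNT5A and WNT11 are best known for β-catenin-independent signaling, in part through the receptors ROR1 and ROR2. R-spondins bind the receptors LGR4, LGR5, and LGR6 and restrain the ubiquitin ligases ZNRF3 and RNF43, which remove Frizzled receptors from the cell surface. In the hair follicle, Wnt signals pass in both directions between epithelium and dermal papilla, and they accompany the start of hair growth.

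Of the 10 genes, 8 had enough reads for testing. With ATRA, 6 of them were lower (WNT2, WNT5A, WNT5B, WNT10B, RSPO2, and RSPO3) and 2 were higher (WNT7B and WNT11) at an adjusted p under 0.05 from edgeR's quasi-likelihood test. WNT2B and WNT10A were at or near 0 counts in every library. Among all 12588 genes tested, 38.7% were lower and 40.9% were higher by this criterion, so a call by itself was common. With a log₂ fold change (log₂FC) beyond 1 in size and an unadjusted p under 0.05, 5 of the 8 tested were lower and 2 were higher, while 17.3% of all genes tested were lower and 13.7% were higher. WNT10B was the gene called by the first criterion and not by the second. WNT2 had enough reads for the test only through the control group and WNT7B only through the ATRA-treated group. RSPO2 had them mostly through the control group, with 1 ATRA library over the filter. These 3 thus entered the test through the group in which they were high, and the counts of calls are given as a description.

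The libraries held 35532339 to 38012771 counts each. They were scaled by the TMM method, with factors of 0.842 to 0.851 in the control group and 1.16 to 1.20 in the ATRA-treated group, and levels are given as normalized CPM, the counts scaled to a common library total. These levels are not divided by transcript length, so they compare a gene between groups and not one gene with another. No pair of libraries within a group agreed within sampling noise, as copies of a library would. Dividing by library size alone would add 0.48 to the median log₂FC of all genes and change the genes called from 5151 higher and 4877 lower to 7921 higher and 2861 lower. The direction and the call of each of the 8 tested WNT and RSPO genes were the same under every scaling tried. In cultures measured in bulk, fewer cells of a type and less RNA per cell cannot be told apart.

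WNT5A and its close paralog WNT5B were both lower with ATRA. WNT5A, the typical ligand of ROR receptors, had 6181, 6829, and 7013 counts in the control libraries and 1274, 1475, and 1328 in the ATRA libraries. The groups stood far apart, with little spread inside each. Its level fell from 210 ± 9.69 to 31.7 ± 2.02 CPM (SD, n = 3 per group), which left 15.1% of the control level (log₂FC -2.73, standard error [SE] 0.0661, adjusted p = 2.49e-17). WNT5B had 339, 426, and 339 counts in the control libraries and 257, 186, and 222 with ATRA. Its highest ATRA library was below its lowest control library, but the distance was much smaller than for WNT5A. It fell from 11.5 ± 1.42 to 5.18 ± 0.880 CPM (SD, n = 3 per group; log₂FC -1.16, SE 0.135, adjusted p = 3.08e-07). With library size only its log₂FC was -0.68, short of the fold threshold. In the RefSeq annotation of the goat assembly ARS1.2, the gene FBXL14 overlaps the span of WNT5B. The strand setting of the counting is not given in the sources used here, so reads of the pair could be shared. FBXL14 itself had a log₂FC of -0.17.

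**Figure D1:**
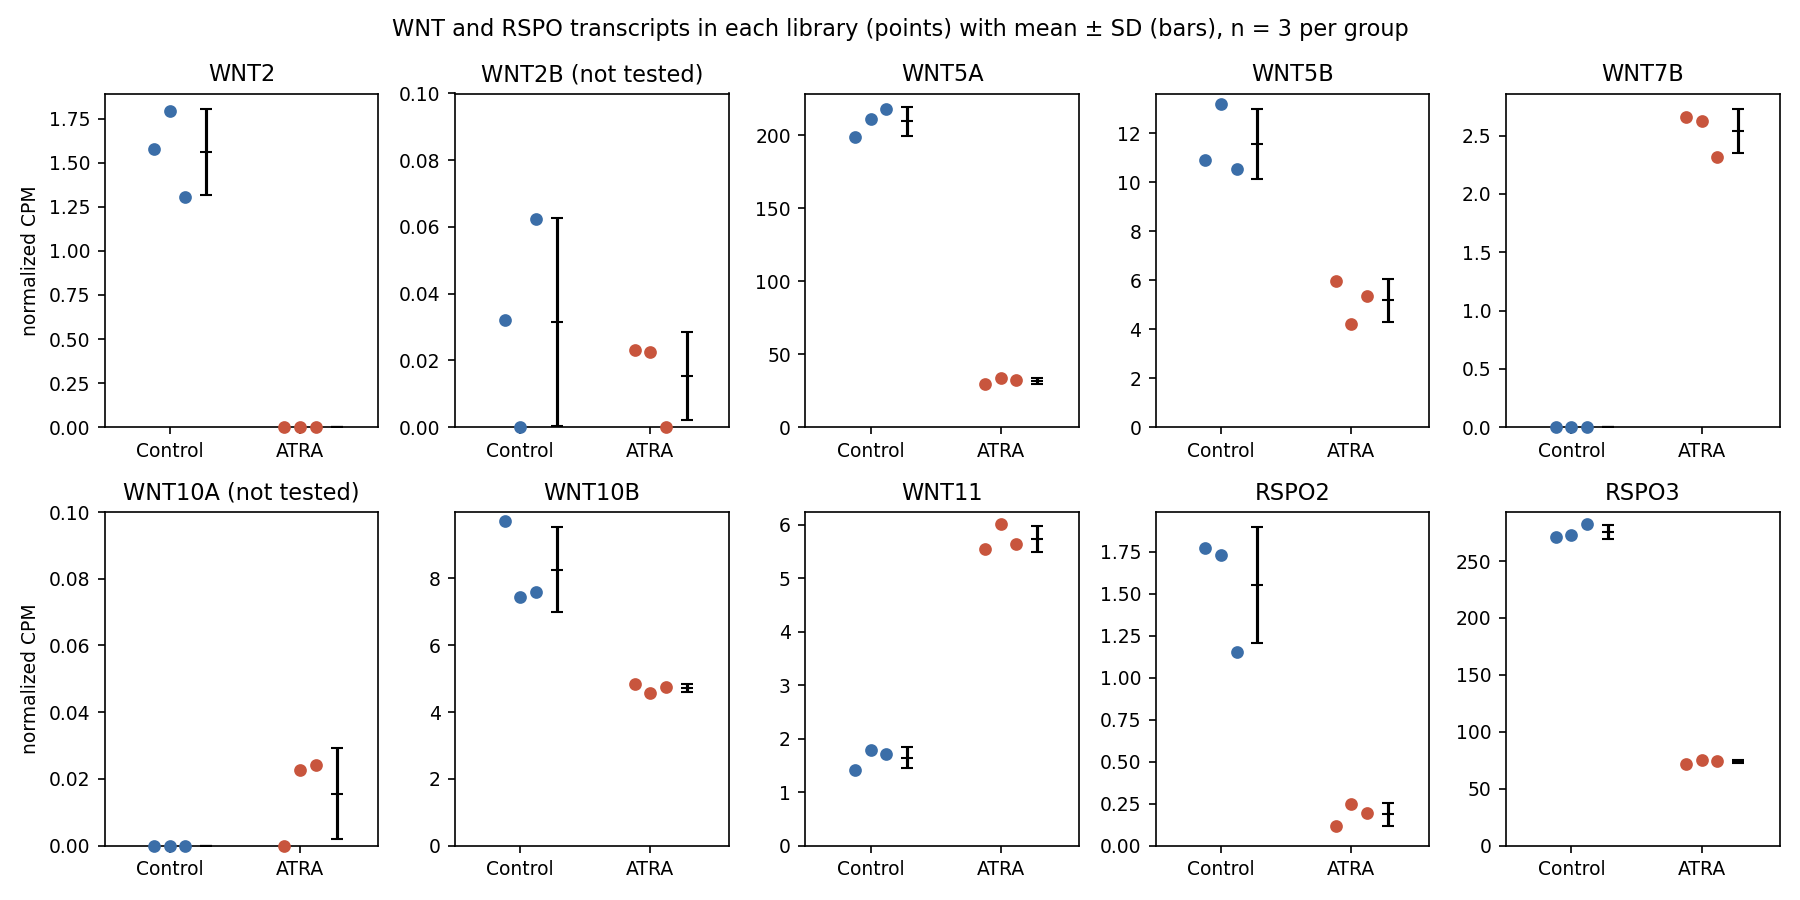
Normalized CPM of the 10 WNT and RSPO genes in each control library (blue) and ATRA library (red), with the mean ± SD of 3 libraries in black. The vertical axes are linear, start at 0, and differ between panels. Both groups are apart for every gene except WNT2B and WNT10A, which were not tested.

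WNT10B and WNT2 were the other ligands that fell. WNT10B, a ligand of the β-catenin branch known to promote the growth phase of hair follicles, had 302, 241, and 244 counts in the control libraries and 209, 202, and 196 with ATRA. The ATRA libraries were close to each other and all below the control libraries. Its level went from 8.26 ± 1.28 to 4.72 ± 0.129 CPM (SD, n = 3 per group), and its log₂FC of -0.81 (SE 0.132; adjusted p = 2.05e-05) was the smallest change among the tested genes of this group. Without Control replicate 1, the highest library, the log₂FC was -0.67, and with library size only it was -0.33.

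WNT2, a ligand made by mesenchymal cells in several organs, was a low transcript that was no longer detected. The control libraries held 49, 58, and 42 counts, or 1.56 ± 0.243 CPM (SD, n = 3), and each of the ATRA libraries held 0. With 3 counts per library taken as the limit that a count of 0 allows, WNT2 was at least 21.5-fold lower (adjusted p = 6.70e-09). The limit covers counting error only.

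WNT11 and WNT7B moved the opposite way. WNT11, known for β-catenin-independent signaling in cell movement, had 44, 58, and 55 counts in the control libraries and 240, 265, and 233 with ATRA. Every ATRA library was far above every control library. Its level rose from 1.64 ± 0.198 to 5.73 ± 0.244 CPM (SD, n = 3 per group), which was 3.49-fold (log₂FC 1.80, SE 0.163, adjusted p = 9.13e-09).

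WNT7B, a ligand made by many epithelia, including that of the hair follicle, was detected only with ATRA. No read fell on it in the control libraries (0, 0, and 0 counts), and the ATRA libraries held 115, 116, and 96 counts, or 2.54 ± 0.189 CPM (SD, n = 3). Against the same limit of 3 counts per library, the ATRA level was at least 26.2-fold higher (adjusted p = 6.19e-10). The 3 ATRA libraries were close to each other.

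WNT2B and WNT10A could not be compared. WNT2B, a relative of WNT2, had 1, 0, and 2 counts in the control libraries and 1, 1, and 0 with ATRA. WNT10A, the relative of WNT10B whose loss in humans impairs hair, teeth, and sweat glands, was at 0 counts in the whole control group and at 0, 1, and 1 with ATRA. At this depth 3 counts correspond to at most 0.0967 CPM, and neither gene passed that limit in any library. In ARS1.2, WNT10A stands next to WNT6 and WNT10B next to WNT1, the usual arrangement of these genes in mammals. WNT1 had at most 2 counts in any library beside the readily detected WNT10B, so the neighbours were not detected together. A long noncoding RNA gene, LOC102172108, overlaps WNT10A in that annotation.

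The R-spondins were both lower with ATRA. RSPO3, a secreted amplifier of Wnt signaling from mesenchymal and endothelial cells, had 8405, 8827, and 9076 counts in the control libraries. With ATRA it had 3114, 3312, and 3064 counts. The libraries of each group were within a narrow range and the groups did not approach each other. RSPO3 fell from 275 ± 6.27 to 73.7 ± 1.55 CPM (SD, n = 3 per group), to 26.8% of the control level (log₂FC -1.90, SE 0.0551, adjusted p = 3.81e-16). RSPO2, a gene linked to coat type in dogs, was much less covered by reads, with 55, 56, and 37 counts in the control libraries and 5, 11, and 8 with ATRA. All ATRA libraries were below all control libraries, although the values within each group differed more than for RSPO3. Its level went from 1.55 ± 0.347 to 0.186 ± 0.0671 CPM (SD, n = 3 per group), and the log₂FC was -3.03 (SE 0.356, adjusted p = 3.33e-07). For all 8 tested genes the control and ATRA libraries did not overlap, which was also the case for 80.1% of all genes tested. In the order of all changes, 5.42% of the genes tested had a lower log₂FC than WNT5A, 8.79% than RSPO3, and 20.5% than WNT10B, while 6.17% had a higher log₂FC than WNT11.

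**Figure D2:**
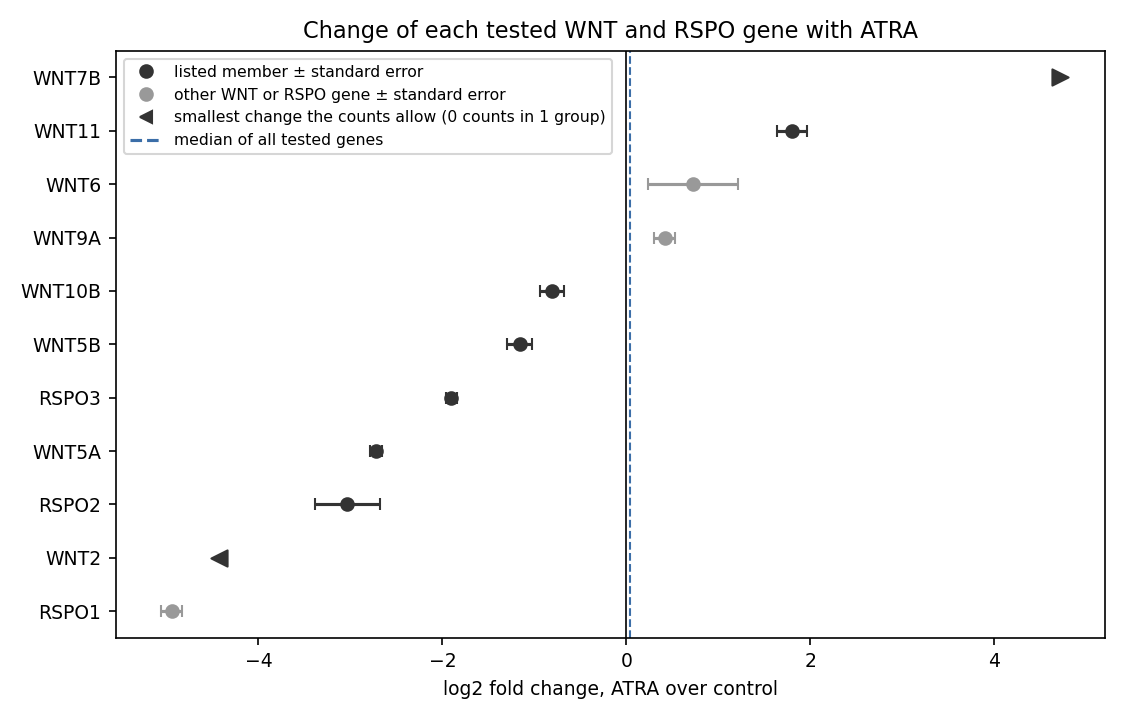
The log₂FC (ATRA over control, horizontal axis) of each tested WNT and RSPO gene, with its SE from edgeR; black marks are the listed genes and gray marks the other family genes. Triangles give the smallest change that the counts allow for WNT7B and WNT2, which had 0 counts in 1 group, and the dashed line is the median of all tested genes (0.04).

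The remaining genes of both families in the table were 8, of which 3 were tested. RSPO1, the third R-spondin measured, had 1002, 1083, and 1125 counts in the control libraries and 48, 52, and 40 with ATRA. Its log₂FC of -4.95 (SE 0.115, adjusted p = 1.32e-17) corresponded to 3.23% of the control level. WNT9A, a β-catenin-branch ligand known from joint formation, went from 7.65 ± 0.749 to 10.2 ± 1.02 CPM (SD, n = 3 per group), and its log₂FC was 0.42 (SE 0.116, adjusted p = 0.00328). WNT6 had 3, 9, and 5 counts in the control libraries and 13, 13, and 12 with ATRA (log₂FC 0.72, SE 0.490, adjusted p = 0.183). It had enough reads for the test only through the ATRA-treated group, and was called only with library size only (adjusted p = 0.0293). WNT16 was not tested, with 13, 9, and 16 counts in the control libraries and 0 in each ATRA library. WNT1, WNT3, WNT4, and WNT7A had at most 5 counts in any library.

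The ratio of 2 related genes within a library does not depend on scaling. Of 4 pairs planned, WNT5A/WNT5B and RSPO2/RSPO3 could be compared. The reads on WNT5A were 18.2, 16.0, and 20.7 times those on WNT5B in the control libraries and 4.96, 7.93, and 5.98 times with ATRA. The log₂ ratio went from 4.19 ± 0.184 to 2.63 ± 0.341 (SD, n = 3 per group), a difference of -1.56. The ratio of RSPO2 to RSPO3 reads was 0.00654, 0.00634, and 0.00408 in the control libraries and 0.00161, 0.00332, and 0.00261 with ATRA. Its log₂ ratio changed by -1.20, from -7.50 ± 0.382 to -8.70 ± 0.534 (SD, n = 3 per group). This ratio rests on few RSPO2 reads with ATRA (5, 11, and 8 counts), and RSPO2 passed the filter mostly through the control group. Reads possibly shared between WNT5B and FBXL14 would also enter the WNT5A/WNT5B ratio. Both ratios were lower in 3 of 3 ATRA libraries (exact permutation test, two-sided, p = 0.1 and adjusted p = 0.1 over 2 pairs, the smallest p that 3 libraries against 3 allow). For WNT10A/WNT10B and WNT2/WNT2B, one gene of the pair was at or near 0 counts and no ratio was computed.

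The reads on the family as a whole were fewer and differently divided. Summed over all 15 WNT genes in the table, the level went from 241 ± 9.55 to 60.5 ± 2.01 CPM (SD, n = 3 per group), or 25.1% of the control level. WNT5A held 87.0% ± 0.755 of these reads in the control group and 52.3% ± 1.97 with ATRA (SD, n = 3 per group). The share of WNT9A was 3.17% ± 0.190 and 16.9% ± 1.22, and that of WNT11 was 0.680% ± 0.0602 and 9.47% ± 0.354 (SD, n = 3 per group). WNT7B held 4.20% ± 0.419 of the WNT reads with ATRA. Summed over the 3 RSPO genes, the level went from 311 ± 7.26 to 75.0 ± 1.63 CPM (SD, n = 3 per group). RSPO3 held 88.7% ± 0.132 of the RSPO reads in the control group and 98.3% ± 0.163 with ATRA (SD, n = 3 per group). The shares count reads, and a longer transcript gives more of them.

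**Figure D3:**
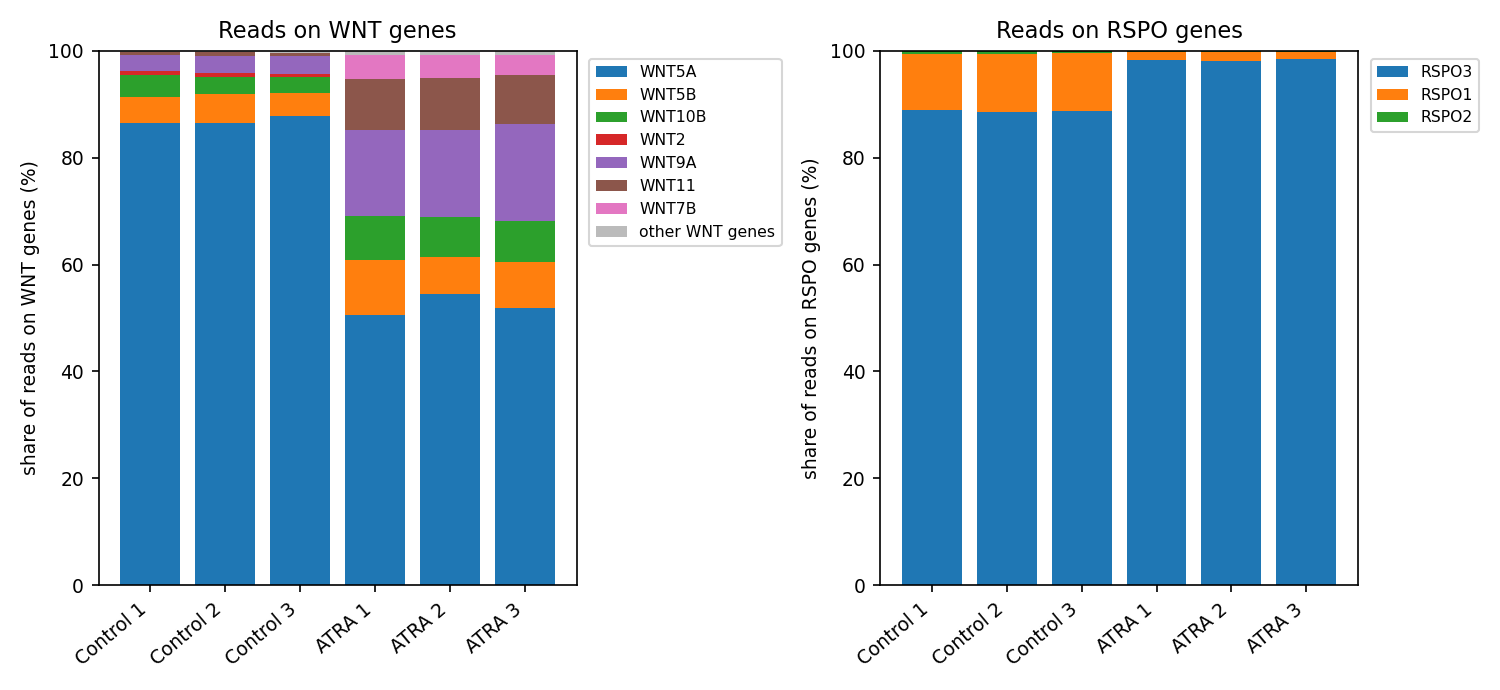
Share of the reads on 15 WNT genes (left) and 3 RSPO genes (right) that each gene held, as stacked percentages per library. WNT5A holds most WNT reads in the control libraries and about equals the other WNT genes together in the ATRA libraries, while RSPO3 holds most RSPO reads in all 6 libraries.

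The other genes of the pathway were listed by role, the remaining WNT and RSPO genes included, as 7 lists with 78 genes in the table and 61 tested. By the adjusted p, 22 were higher and 33 lower. With library size only, these were 28 and 21. Calls in both directions were the rule among all genes tested, of which 40.9% were higher and 38.7% lower, and the counts for each list are given as a description beside these shares. Their median log₂FC was -0.35, beside 0.04 for all genes tested. Among 11 tested genes for Wnt secretion and ligand processing, 4 were higher and 6 lower, which became 5 and 3 with library size only. These counts and the totals above include HHAT, a Hedgehog acyltransferase, which was higher (log₂FC 1.26, SE 0.144). WLS, which carries WNT proteins to the cell surface, rose from 83.5 to 163 CPM (log₂FC 0.96, SE 0.0580), while PORCN, which attaches their lipid, had a log₂FC of -0.32 (adjusted p = 0.110). NOTUM, an enzyme that removes the lipid, had 2, 4, and 3 counts in the control libraries and 54, 35, and 33 with ATRA, and had enough reads for the test only through that group. GPC4, a cell-surface glypican that binds WNT proteins, fell by 3.58 on the log2 scale, from 349 to 29.3 CPM. TRABD2B, a membrane protease that cuts WNT proteins, fell from 21.8 to 5.35 CPM, and TMED2, a cargo adaptor of the early secretory pathway, rose from 338 to 401 CPM.

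Receptors moved in both directions, with 7 of 16 tested genes higher and 9 lower, or 7 and 8 with library size only. FZD1 and PTK7, those with the most reads, fell from 425 to 164 CPM and from 301 to 105 CPM. FZD7 rose from 0.718 to 19.6 CPM (log₂FC 4.76, SE 0.182), and FZD3 had 5, 2, and 6 counts in the control libraries and 104, 117, and 90 with ATRA. The receptor pair of WNT5A parted, as ROR1 fell from 99.9 to 7.32 CPM (log₂FC -3.77, SE 0.105) and ROR2 rose from 33.2 to 49.6 CPM (log₂FC 0.58, SE 0.0660). LRP5 rose with a log₂FC of 1.53 (SE 0.130), and LRP6 had a log₂FC of -0.32 (adjusted p = 0.0256) that turned to 0.16 with library size only. FZD3 and FZD6 had enough reads for the test only through the ATRA-treated group.

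Of the R-spondin receptors, LGR4 fell from 30.3 to 11.0 CPM (log₂FC -1.45, SE 0.0975), and LGR5 and LGR6 had at most 2 counts in any library. ZNRF3, the ligase that R-spondins restrain, was at 8.05 and 8.58 CPM (log₂FC 0.09, adjusted p = 0.541), but was called higher with library size only (log₂FC 0.57, adjusted p = 0.00139), and RNF43 had at most 3 counts in any library. SDC4, a syndecan that binds R-spondins, rose from 167 to 431 CPM (log₂FC 1.37, SE 0.0558).

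Of 5 tested secreted or membrane-bound inhibitors, 4 were lower, among them WIF1, which binds WNT proteins directly (log₂FC -4.25, SE 0.300), which was tested only through its control reads. SFRP4, a secreted Frizzled-related protein, was also tested mainly through its control reads (log₂FC -1.42, SE 0.457). DKK3, a divergent member of the Dickkopf family, fell from 43.6 to 17.2 CPM, and KREMEN1, a receptor for Dickkopf proteins, from 33.9 to 16.6 CPM. With library size only, 3 inhibitors were lower and 1 higher. Of 19 tested cytoplasmic and nuclear genes, 8 were higher and 9 lower. With library size only these were 10 and 3, and the log₂FC of APC, GSK3B, BCL9L, and PRICKLE1 turned from below to above 0. CTNNB1, which encodes β-catenin, fell from 837 to 274 CPM (log₂FC -1.61, SE 0.0622). BCL9, a coactivator of β-catenin, and TCF7L1, a transcription factor that binds it, fell from 90.3 to 27.4 CPM and from 49.2 to 18.1 CPM. CSNK1A1, a kinase that primes β-catenin for degradation, rose from 334 to 486 CPM. Of 7 tested target genes of β-catenin, which were feedback genes together with CCND1 and MYC, 4 were lower and 1 was higher. These became 2 lower and 3 higher with library size only, as TCF7 (log₂FC 0.31) and ZNRF3 were then called higher. NKD1, a feedback inhibitor, fell from 23.3 to 1.95 CPM (log₂FC -3.58, SE 0.124) and CCND1 from 262 to 73.9 CPM, whereas MYC rose from 91.3 to 127 CPM. AXIN2, the usual reporter of β-catenin activity, was at -0.51 on the log₂FC scale (SE 0.165, adjusted p = 0.00924) and LEF1 at -0.54 (SE 0.103, adjusted p = 0.000108), and with library size only these were -0.03 and -0.06 and no longer called.

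**Figure D4:**
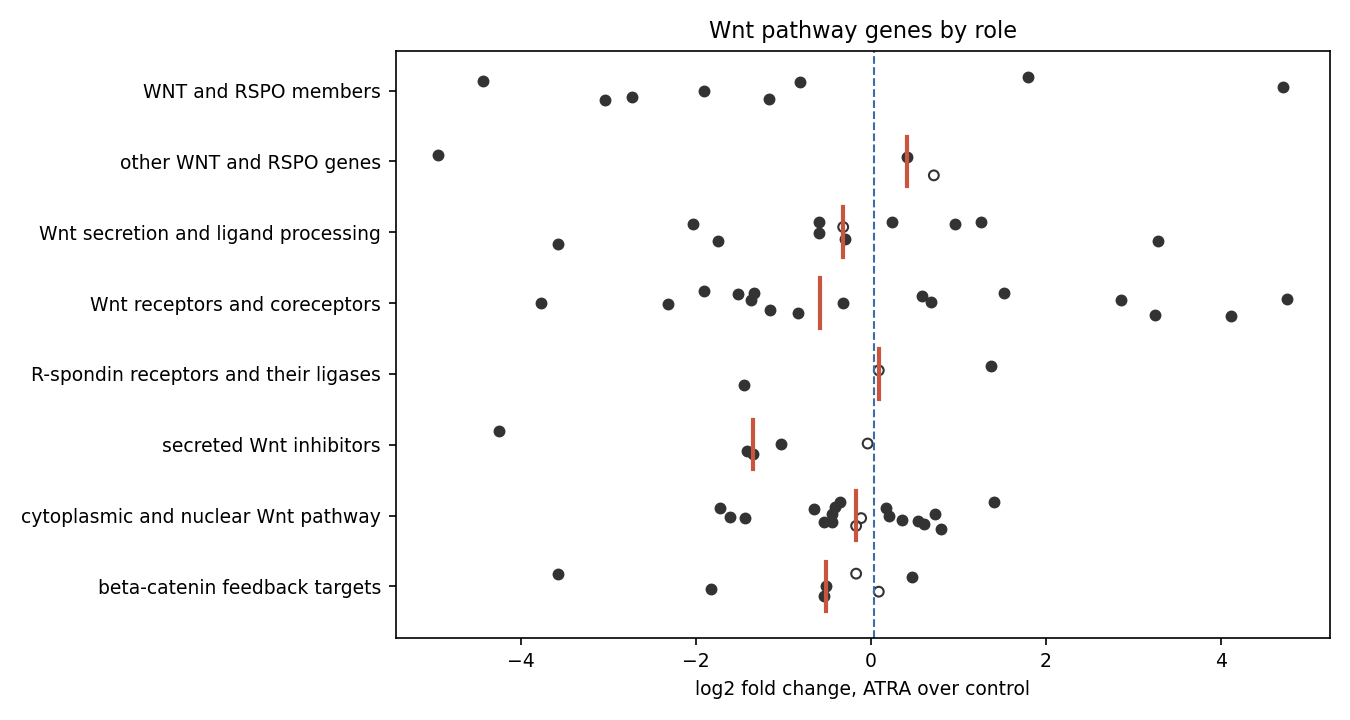
The log₂FC (ATRA over control, horizontal axis) of every tested gene in the lists of Wnt pathway genes, one row per role; filled points passed an adjusted p under 0.05 and open points did not. Red bars are list medians, drawn for the lists other than the 10 WNT and RSPO genes, and the dashed line is the median of all tested genes (0.04). Genes with 0 counts in 1 group are drawn at the smallest change their counts allow.

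Markers of the labelled cell type and of other cells were examined beside these results. Of 12 dermal papilla and mesenchymal markers, 8 were tested and all 8 were lower with ATRA by the adjusted p, as were 38.7% of all genes tested. LEF1, 1 of the 8, was not called with library size only (log₂FC -0.06). PROM1 (which encodes CD133), ALPL, and CORIN had 3 counts or fewer in every library. SOX2, the other one not tested, had 5, 0, and 2 counts in the control libraries and 10, 16, and 9 with ATRA. The summed level of the 12 was 54500 to 57281 CPM in the control libraries and 2306 to 2401 CPM in the ATRA libraries, mainly from COL1A1 and VIM. ACTA2, which encodes α-smooth muscle actin, went from 6582 to 8.37 CPM. The study isolated its cells from separated secondary follicles and stained them for this protein and for CD133, with adipose stem cells as the negative control. It also described their aggregative growth. Staining measures protein, whereas the values here are transcript counts. PROM1 had 1, 0, and 0 counts in the control libraries and 0 in each ATRA library. The part of the dermal papilla and mesenchymal markers in the fall of the WNT and RSPO genes was not tested. Of 12 keratinocyte markers, 8 were in the table, with a summed level of 3.35 to 5.19 CPM in the control libraries and 5.40 to 6.02 CPM with ATRA. Most of it was KRT10, a keratin of differentiating epidermis, which rose from 3.17 to 5.62 CPM (log₂FC 0.82, SE 0.175, adjusted p = 0.000328). KRT14, which was not tested, had 20, 14, and 10 counts in the control libraries and 3, 0, and 0 with ATRA. KRT5 (2, 7, and 3 control counts) and KRT6A (3, 7, and 14 control counts) were at 0 counts in every ATRA library. EPCAM had 0, 1, and 0 counts in the control libraries and 1, 5, and 2 with ATRA. TP63, CDH1, and DSP had 3 counts or fewer in every library. Endothelial markers (5 of 8 in the table) summed to 0.903 to 1.24 CPM in the control libraries and 6.19 to 9.16 CPM with ATRA. Most of the latter was PECAM1, which had 0 counts in each control library and 242, 340, and 206 with ATRA. VWF was little changed (log₂FC 0.06, adjusted p = 0.909), and TEK was higher (log₂FC 0.87, adjusted p = 0.0122). KDR, which was not tested, had 5, 6, and 10 counts in the control libraries and 2, 1, and 0 with ATRA. CDH5 had 3 counts or fewer in every library. Leukocyte markers (4 of 6) summed to 9.24 to 12.9 CPM in the control libraries and 41.3 to 44.2 CPM with ATRA, mostly CD14 and CD68. CSF1R, which was not tested, had 5, 3, and 4 counts in the control libraries and 7, 3, and 5 with ATRA. CD3E, also not tested, had 1, 0, and 1 counts in the control libraries and 2, 5, and 3 with ATRA. Melanocyte markers (3 of 7) summed to 16.1 to 17.6 CPM and 32.2 to 39.0 CPM, mostly MITF. PMEL, another melanocyte marker, fell from 4.01 to 2.15 CPM (log₂FC -0.90, SE 0.166, adjusted p = 7.61e-05). TYRP1 had at most 1 count in any library. The part of these cell types in the changes of WNT7B and WNT11 was not tested.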

How the data were processed

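RNA-seq was performed on poly(A) mRNA of 3 control and 3 ATRA libraries, which the labels place in a single batch. The authors cleaned reads with fastp and TrimGalore, and the submitters' processing notes name HISAT2, featureCounts, and DESeq2. The deposited values are raw counts of reads per gene, not normalized, and the genome build, annotation, and strand setting are not given in the sources used here. All gene symbols matched RefSeq's ARS1.2 table, which was used for names and neighbours only. No sequence was used, and no search of promoters was made.

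edgeR's filterByExpr retained 12588 of 15944 genes. After TMM scaling, one robust quasi-likelihood model in edgeR covered all 6 libraries with no covariate (two-sided), with Benjamini-Hochberg adjustment over all genes tested. R's t.test function, named in the study's methods, served as an alternative, since a count model suits raw counts. The SE is the size of the log₂FC divided by the root of the F statistic. A count of 0 was bounded at 3 counts per library, using the library in which that is the highest CPM. Whether the libraries of a group came from separate animals is stated in the methods only. WNT2, WNT7B, and RSPO2 rest on far fewer reads per library than WNT5A and RSPO3 and are less precise.

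The genes and lists were chosen with earlier results of these data known. Named genes were the 10 genes, every other WNT or RSPO gene, at most the 3 with the largest absolute log₂FC and the 2 with the highest level of each list, and receptors of the ligands. WLS, PORCN, HHAT, AXIN2, RNF43, TCF7, APC, GSK3B, BCL9L, PRICKLE1, and FBXL14 are outside that rule and were chosen with their values in view. Other marker genes come from the marker lists. Other alternatives were DESeq2, further scalings and filters, a replicate block, and leaving out single libraries. The tests were tried on simulated data with few changed genes, in equal numbers up and down. That simulation does not check the scaling where most genes are called, as here. Versions were R 4.3.3, edgeR 4.0.16, DESeq2 1.42.0, Python 3.11.15, and scipy 1.17.1.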

Additional observations from a re-analysis of the deposited data

How the results depend on the processing

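Over 14 alternatives, each of the 8 tested genes among the 10 listed kept its direction and its call wherever it could be tested (111 of 111 values). Leaving out each library in turn gave 6 genes lower and 2 higher each time, with the log₂FC of WNT5A from -2.77 to -2.68, WNT5B from -1.28 to -1.04, WNT10B from -0.88 to -0.67, WNT11 from 1.71 to 1.87, RSPO2 from -3.31 to -2.79, and RSPO3 from -1.92 to -1.88. Filtering at a CPM of 1 in 3 or more libraries left RSPO2 untested and so 5 genes lower. The fitted log₂FC of low genes depends on the value added before the log, since t.test on log2(CPM + 1) values gave -1.35 for WNT2 and 1.82 for WNT7B, each with 0 counts in a group, and -1.10 for RSPO2, which had few counts with ATRA. With library size only, 21 rather than 33 pathway genes were lower and 73.5% rather than 51.4% of all calls were higher. WNT6, tested only through its ATRA reads, was then called (log₂FC 1.19). The difference in the WNT5A/WNT5B log₂ ratio lay between -1.74 and -1.40, and that of RSPO2/RSPO3 between -1.43 and -0.91, when each library was left out. Libraries with the same replicate number did not deviate together (correlations 0.09, 0.03, and -0.08 over genes), so the numbers are not taken to pair the samples. The replicate block left 6 genes lower and 2 higher, and 22 pathway genes higher and 33 lower, and gave an exact p of 0.25 for both ratios, the smallest that 3 pairs allow. Summing over the 8 listed WNT genes alone, an alternative chosen after seeing the data, put the WNT5A share with ATRA at 63.5%. WNT2B and WNT10A had too few reads to be compared at this depth.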
